A study of Mus musculus with 6 samples.

Results

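The 10 genes described here encode the contractile apparatus by which smooth muscle cells, and fibroblasts that have become myofibroblasts, are usually recognised: Acta2, Actg2, Tagln, Cnn1, Myl9, Myh11, Tpm1, Tpm2, Cald1 and Des. They were taken by gene symbol from the deposited tables, where each had 1 row among 55565 genes, and their values were compared between WT and KO mouse embryonic fibroblasts (MEFs). The study examined the loss of Mcm8, a member of the minichromosome maintenance helicase family that acts in homologous recombination. Both genotypes were day 13.5 embryos of Mcm8+/- by Mcm8+/- matings, so that WT was Mcm8+/+ and KO was Mcm8-/-. In KO, exon 7 of Mcm8 had been deleted by CRISPR-Cas9 in C57BL/6 mice that were then crossed to ICR, which leaves a mixed background. MEFs of both genotypes came from the trunk after head, tail, limbs, heart and liver had been removed, and both were immortalized with lentiviral SV40gp6 under puromycin selection and grown in DMEM with fetal bovine serum, with no other treatment. There were 3 libraries for each genotype, described as biological repeats. The sources did not say whether these were separate embryos or separate cultures of 1 immortalized line. The spread between these libraries may therefore be technical. With all 6 libraries, edgeR's p-values rest on the trend of that spread over genes, not on each gene's own spread.

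In smooth muscle, actin filaments slide over filaments of smooth muscle myosin, and calponin, caldesmon and tropomyosin lie along the actin filament and regulate that sliding. Fibroblasts under tension or transforming growth factor beta take up part of the same programme as stress fibres rich in smooth muscle α-actin, and are then called myofibroblasts. Many of these genes are activated by serum response factor (SRF), which binds a DNA element named the CArG box together with myocardin or the myocardin-related factors MRTF-A and MRTF-B. As the samples were bulk cultures, fewer cells expressing a gene and less of its RNA in each cell cannot be told apart.

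Libraries held 12722979 to 21022755 counts and the 10 genes took 0.437% to 0.482% of the counts in WT and 0.407% to 0.410% in KO. Mcm8 was counted 176, 233 and 238 times in the WT libraries against 89, 74 and 66 times in the KO libraries, a log2 fold change of -1.75 ± 0.16 (SE), so the targeted gene went the way of the labels. WT1 stood apart from the other WT libraries. Its chi-square per degree of freedom over 11364 genes was 16.7 against WT2 and 15.8 against WT3, while WT2 against WT3 gave 4.90 and pairs of KO libraries 2.80 to 3.30. No pair was a duplicate. Because of WT1, each contractile gene called is also given without that library. Of the 51 genes called in the other lists below, 50 were still called without WT1, in the same direction. The exception was S100a4, at a log2 fold change of -0.35 with an adjusted p of 0.194 in edgeR. Fn1 was the 1 gene of the 51 whose log2 fold change moved by over 1.5 times, from 0.29 to 0.12, with 4958 CPM in WT1, 7393 and 7483 in the other WT libraries and 8037 to 8237 in KO.

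Levels are given as CPM unless FPKM is named. CPM are the counts of a gene scaled to a common library size with TMM factors. FPKM is also scaled to gene length, taken over all exonic bases of a gene rather than over a single transcript. A gene was called when its adjusted p was below 0.05 in edgeR's quasi-likelihood test with Benjamini-Hochberg adjustment over the 26898 genes with any count. Among the 10 contractile genes, 4 were called lower in KO (Acta2, Actg2, Myl9 and Cald1) and 0 higher in edgeR, with 4 lower and 1 higher at an unadjusted p below 0.05. DESeq2 called 3 lower and 0 higher. Across all genes tested, 4.03% were called lower and 4.97% higher. A mean of at least 100 CPM was reached by 5 of the 10 (Acta2, Cald1, Tpm1, Tpm2 and Myl9), of which 3 were called lower and 0 higher, while of the 2473 genes at that level 10.5% were called lower and 7.2% higher. With the further requirement of a 2-fold change, 0 of the 10 were called, against 2.42% of all genes in either direction. The median log2 fold change was -0.22 over the 10 genes and 0.01 over all genes tested. The KO libraries all lay below the WT libraries for 4 contractile genes, a pattern that 10.1% of all genes had, and all above them for 1, Tpm1, a pattern that 11.6% had.

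**Figure D1:**
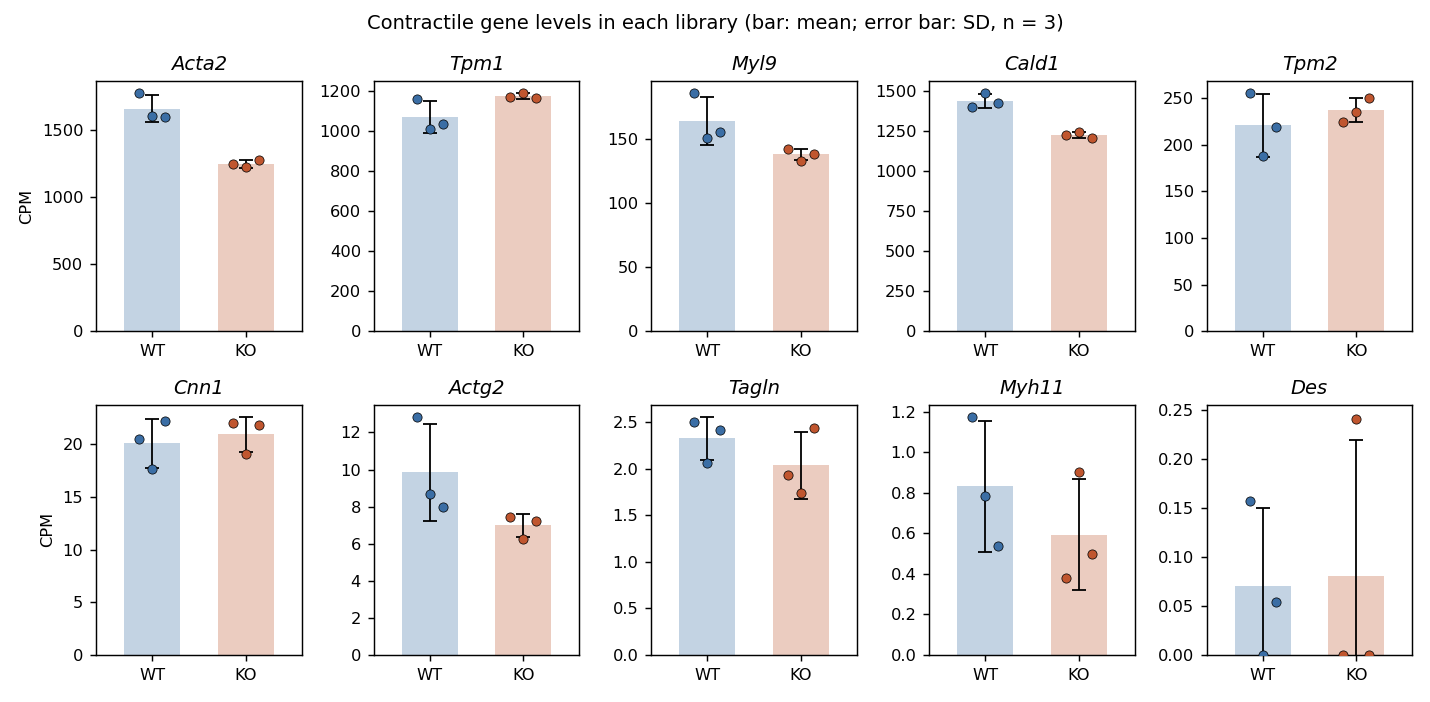
Level of each contractile gene in CPM (vertical axes, each from 0 and on its own scale) in the 3 WT and 3 KO libraries, ordered by FPKM. Points are libraries from left to right in order of their number, bars are means and error bars are SD (n = 3). The KO points lie below all WT points for Acta2, Myl9, Cald1 and Actg2, above them for Tpm1, and overlap them for the other 5 genes.

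Per gene length the 10 genes spanned a wide range of expression. Mean FPKM over the 6 libraries was 658 for Acta2, 172 for Tpm1, 130 for Myl9, 110 for Cald1, 78.3 for Tpm2, 7.47 for Cnn1, 5.38 for Actg2, 1.09 for Tagln, 0.093 for Myh11 and 0.020 for Des. Each gene was above the next in this order in 6 of 6 libraries, other than Cnn1 over Actg2, which held in 5. The order of Myl9 and Cald1 depends on the length used. FPKM divides Cald1 by 12041 exonic bases, while its longest annotated transcript has 4777 bases. For Myl9 these lengths are 1162 and 1128. Acta2 was among the 30 most highly expressed genes in every library, ranking 22 to 30. Myh11, the smooth muscle myosin heavy chain, and Des, the intermediate filament protein of muscle, were at or near 0, so the label of smooth muscle was not met by these 2 markers. Myocd, which encodes the smooth muscle cofactor myocardin, had a mean FPKM of 0.12 in WT and 0.11 in KO. The fibroblast genes of the labelled cell type were present, with Col1a1, a chain of type I collagen, at a mean FPKM of 1310 in WT and 1507 in KO.

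Acta2, smooth muscle α-actin (ENSMUSG00000035783, chromosome 19, 34218490 to 34232990, minus strand), had 1772 CPM in WT1, 1602 in WT2 and 1592 in WT3, against 1243 in KO1, 1218 in KO2 and 1274 in KO3. Other genes are given in the same order of libraries. Gene coordinates are as deposited, which differ from the GRCm38 coordinates of the promoter stretches below. The highest KO library was below the lowest WT library. The mean was 1655 ± 101 (SD, n = 3) in WT and 1245 ± 27.8 in KO, which is 75.2% of WT. The log2 fold change was -0.41 ± 0.06 (SE), with an adjusted p of 7.62e-10 in edgeR. Without WT1 it was -0.36 with an adjusted p of 3.93e-26, and the gene was called lower in 14 of 14 fits that differed in test, scaling, gene filter or library.

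Actg2, the γ-actin of visceral smooth muscle (chromosome 6, 83489887 to 83513247, minus strand), was much scarcer, with 12.9, 8.70 and 7.997 CPM in WT and 7.46, 6.25 and 7.24 in KO. WT1 alone was far above the rest, and the lowest WT library was close to the highest KO library. The mean in KO was 70.9% of WT, a log2 fold change of -0.48 ± 0.16 (SE) with an adjusted p of 0.030 in edgeR. Without WT1 the change was -0.25 and the adjusted p 0.455, so the call for Actg2 rested on that library. It was called in 6 of the 14 fits and was also lost when any 1 of the KO libraries was left out.

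SRF binding elements were searched in the promoter windows of RefSeq (GRCm38.p6, 250 bases before to 50 after each start), because Acta2 and Myl9 fell together and both are classical SRF targets. Windows were held for 7 of the 10 genes: Cald1 with 2 and Acta2, Cnn1, Myl9, Tpm1, Tpm2 and Des with 1 each. A full CArG box is CC, then 6 letters that are each A or T, then GG, and reads as a CArG box on either strand. A CArG-like box was allowed 1 other letter among the 6, so that full boxes are also counted as CArG-like. The window of Acta2 held 2 CArG-like boxes, whose first bases lie 84 and 34 bases before the start. They are printed 5′ to 3′ on the gene's strand with the match in capitals, since they are the elements closest to the start of the most abundant member.
Acta2 (GRCm38.p6, chr19:34255438-34255467, minus strand): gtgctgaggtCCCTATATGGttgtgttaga
Acta2 (GRCm38.p6, chr19:34255388-34255417, minus strand): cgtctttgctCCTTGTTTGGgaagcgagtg

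A match of this kind is a description of the letters, not evidence of binding. CArG-like boxes were in 9.98% of the 32851 windows and in 2 of the 8 windows of the contractile genes, and full CArG boxes were in 1.63% of all windows and in 1 of the 8, that of Myl9.

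Myl9, the regulatory light chain of smooth muscle myosin (chromosome 2, 156617340 to 156623578, plus strand), had 186, 151 and 156 CPM in WT and 142, 133 and 139 in KO. All KO libraries were below all WT libraries, with WT1 the highest. The mean fell from 164 ± 19.1 (SD, n = 3) to 138 ± 4.65, a log2 fold change of -0.25 ± 0.07 (SE) with an adjusted p of 0.0092 in edgeR. Without WT1 the change was -0.15 with an adjusted p of 0.039, a smaller difference on the same side of the threshold. The call was lost when any 1 KO library was left out, at adjusted p values of 0.052 to 0.138, and held in 8 of the 14 fits. The full CArG box of Myl9 begins 161 bases before the start and a CArG-like box begins 99 bases before it, both printed on the plus strand with the match in capitals.
Myl9 full CArG box (GRCm38.p6, chr2:156775293-156775322): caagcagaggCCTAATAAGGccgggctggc
Myl9 CArG-like box (GRCm38.p6, chr2:156775355-156775384): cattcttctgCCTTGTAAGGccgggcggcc

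Myh11 (chromosome 16, 14012399 to 14109236, minus strand), whose product is the heavy chain that Myl9 serves in differentiated smooth muscle, had only 15, 11 and 10 counts in WT and 8, 15 and 8 in KO. These correspond to 0.378 to 1.18 CPM and the groups overlapped. The log2 fold change of -0.47 ± 0.53 (SE) had a 95% interval of -1.51 to 0.57, so that no difference was detectable at this depth.

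Cald1, caldesmon (chromosome 6, 34575435 to 34752408, plus strand), which binds actin and tropomyosin and holds back myosin, had 1401, 1489 and 1425 CPM in WT and 1224, 1242 and 1206 in KO. The groups did not overlap, and here WT1 was the lowest WT library rather than the highest. The mean fell from 1439 ± 45.6 (SD, n = 3) to 1224 ± 18.2, to 85.1% of WT, with a log2 fold change of -0.23 ± 0.06 (SE) and an adjusted p of 0.0026 in edgeR. Without WT1 the change was -0.25 with an adjusted p of 1.38e-12. Leaving out KO1 or KO3 took the adjusted p to 0.051 and 0.058, and the change stayed between -0.25 and -0.21 with any 1 library left out.

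In edgeR with all 6 libraries, Tpm1 and Tpm2 were not called, while limma-voom called Tpm1 higher with an adjusted p of 0.033. Tpm1, α-tropomyosin (chromosome 9, 66929872 to 66956688, minus strand), had 1160, 1011 and 1035 CPM in WT and 1171, 1190 and 1162 in KO. The lowest KO library was above the highest WT library, by 1162 to 1160. The log2 fold change of 0.14 ± 0.06 (SE) had an adjusted p of 0.188 in edgeR and Tpm1 was not called. Without WT1, the one WT library close to KO, it was 0.20 with an adjusted p of 2.27e-07.

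Tpm2, β-tropomyosin (chromosome 4, 43514711 to 43523765, minus strand), had 255, 188 and 219 CPM in WT and 224, 235 and 250 in KO. WT1 was the highest of the 6 and the groups overlapped. The log2 fold change was 0.10 ± 0.07 (SE) with an adjusted p of 0.488 in edgeR, and without WT1 it was 0.22 with an adjusted p of 1.4e-04. Leaving out WT1 therefore turned the count of contractile genes called higher from 0 to 2 and that of genes called lower from 4 to 3, in a fit that called 1650 genes higher and 1624 lower in all.

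Another element of contractile promoters, the MCAT element CATTCC that TEAD factors bind, was searched on both strands and found in 14.7% of all windows. It was in 3 of the 8 windows, those of Acta2, Tpm1 and the first window of Cald1. Each match lay on the strand opposite to the gene and so reads GGAATG in capitals on the gene's strand. The 3 stretches stand together because they come from 2 genes that fell and 1 that did not.
Acta2 (GRCm38.p6, chr19:34255502-34255531, minus strand, 146 bases before the start): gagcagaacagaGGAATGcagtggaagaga
Cald1 (GRCm38.p6, chr6:34598339-34598368, plus strand, 153 bases before the start): gagcatgcctagGGAATGacaggcatctgc
Tpm1 (GRCm38.p6, chr9:67049252-67049281, minus strand, 56 bases before the start): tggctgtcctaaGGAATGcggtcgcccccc

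The sequence TATAAA was in 13.6% of all windows and, among those of the contractile genes, in the second window of Cald1. The windows of Cnn1, Tpm2 and Des held none of these letters, which says only that they were not in these stretches.

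**Figure D2:**
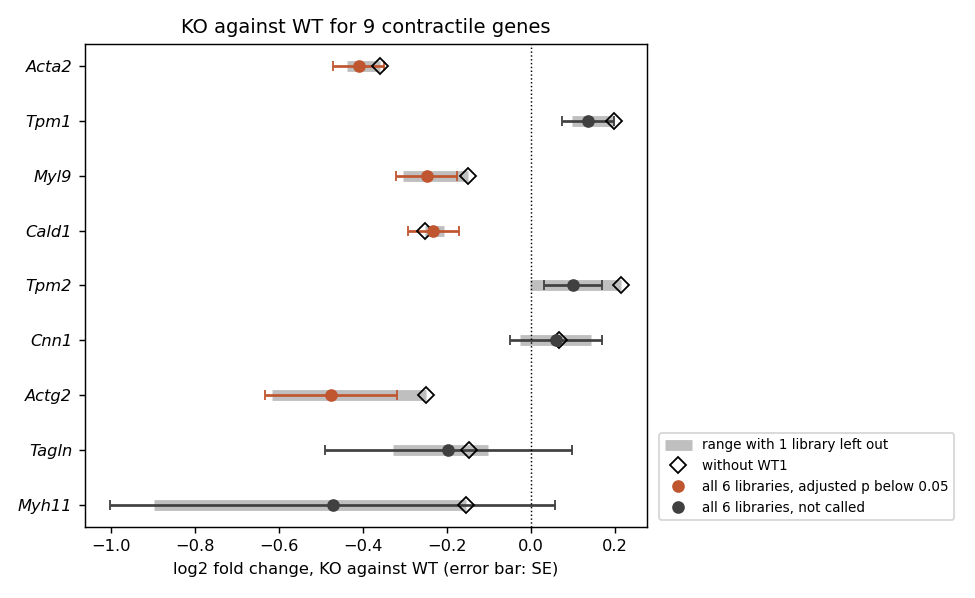
Log2 fold change of KO against WT (horizontal axis) for 9 contractile genes, with Des left out because it had at most 4 counts in a library. Circles are fits with all 6 libraries with their SE, grey bars span the 6 fits that each leave out 1 library, and diamonds are fits without WT1. Acta2 stays left of 0 with a narrow bar, from -0.44 to -0.36, while Actg2 spans -0.62 to -0.25 and the diamonds of Tpm1 and Tpm2 are the rightmost at 0.20 and 0.22.

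Cnn1, calponin 1 (chromosome 9, 22010512 to 22020926, plus strand), which binds actin and restrains myosin in smooth muscle, had 20.5, 17.6 and 22.2 CPM in WT and 22.04, 19.1 and 21.8 in KO. The groups were interleaved, and the log2 fold change of 0.06 ± 0.11 (SE) had a 95% interval of -0.16 to 0.27. A fall of the size seen for Acta2 lies outside that interval.

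Tagln, transgelin or SM22 (chromosome 9, 45840917 to 45847356, minus strand), is an actin-binding protein that is among the most used markers of both smooth muscle and myofibroblasts. It had only 32, 29 and 45 counts in WT and 41, 29 and 39 in KO, or 1.74 to 2.51 CPM, and ranked no higher than 11340 in any library. The log2 fold change was -0.20 ± 0.29 (SE) with a 95% interval of -0.77 to 0.38. This level is uncertain. In an annotation of GRCm38 (GENCODE M21), where Tagln has the same exonic length as in the deposited tables, 67.9% of its 1988 exonic bases also lie in exons of other genes, as much as in only 1.995% of protein-coding genes. Its antisense neighbour Gm48529 covers 1241 of these bases and Pcsk7, which meets its other end, covers 108. Among the other contractile genes Des shared 5.86% of its exonic bases with Gm15179 and the other 8 shared 0. The libraries were made with a kit that does not mark strand, and how the counting treated a read that falls in 2 genes is not given in the sources used here. Gm48529 itself had 16, 42 and 32 counts in WT and 32, 23 and 37 in KO. The part of the overlap in the low count of Tagln was not tested.

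Des, desmin (chromosome 1, 75336973 to 75345223, plus strand), had 2, 0 and 1 counts in WT and 0, 4 and 0 in KO. With at most 4 counts in a library its fitted fold change turned sign between settings, and no difference is read from it.

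Within the 2 gene families, shares of summed FPKM compare each gene with its relatives in the same library and do not depend on library scaling. They do depend on the gene lengths used, and values per gene do not separate its splice forms. Acta2 made up 24.7%, 24.6% and 24.0% of actin FPKM in the WT libraries and 20.4%, 20.6% and 20.7% in the KO libraries. The means were 24.4% ± 0.39 (SD, n = 3) and 20.5% ± 0.14. WT1 was the highest of the WT libraries, with WT2 close to it, and all KO libraries lay below all WT libraries. The cytoplasmic actins took up the difference, with Actb at 49.7% ± 0.53 in WT and 51.4% ± 0.68 in KO and Actg1 at 25.5% ± 0.69 and 27.8% ± 0.55. Summed actin FPKM was 3072 ± 166 in WT and 2746 ± 51.9 in KO, and neither Actb nor Actg1 was called, with log2 fold changes of -0.11 ± 0.06 and -0.04 ± 0.06 (SE). Actg2 was 0.20% of actin FPKM in WT and 0.16% in KO, and skeletal Acta1 about 0.10% in both.

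Among tropomyosins, the share of Tpm1 was 27.0%, 26.3% and 26.9% in WT and 31.1%, 30.8% and 30.6% in KO. The KO libraries lay above all WT libraries by a wide margin relative to their spread, with means of 26.8% ± 0.38 and 30.8% ± 0.25 (SD, n = 3). Tpm4, a tropomyosin of nonmuscle cells, moved in the other direction, from 44.6% ± 1.0 to 38.6% ± 0.18. Its level fell from 1172 to 969 CPM, a log2 fold change of -0.27 ± 0.06 (SE) with an adjusted p of 2.56e-04 in edgeR. Tpm2 was 12.3% ± 1.2 in WT and 13.9% ± 0.73 in KO, with the lowest KO library just above the highest WT library, and Tpm3 was 16.3% ± 0.73 and 16.7% ± 0.49. With 3 libraries against 3 an exact two-sided permutation test on such a share cannot go below p = 0.10, so none was used.

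**Figure D3:**
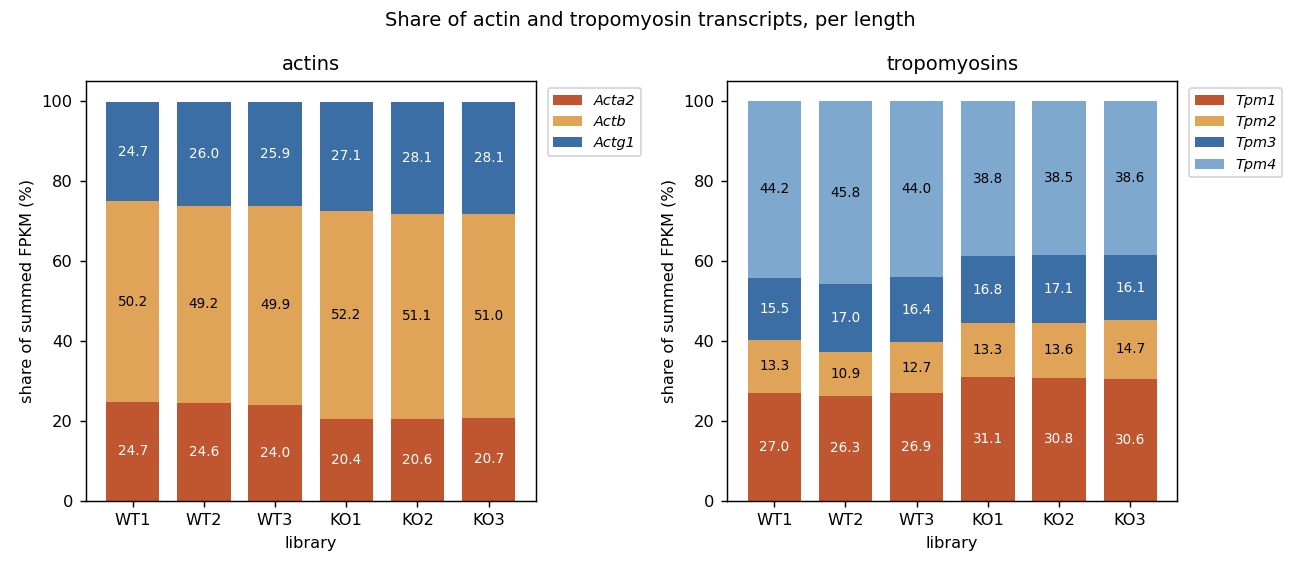
Share of summed FPKM (vertical axis, percent) taken by each actin gene (left) and tropomyosin gene (right) in each of the 6 libraries (horizontal axis), with actins under 1% left unlabelled. Acta2 takes 24.0% to 24.7% of actin FPKM in WT and 20.4% to 20.7% in KO, and Tpm1 rises from 26.3% to 27.0% in WT to 30.6% to 31.1% in KO, with Tpm4 falling.

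Levels of the contractile genes did not move as a block over the 6 libraries. Pearson's r of log2 CPM was 0.90 for Acta2 with Myl9, 0.89 for Acta2 with Cald1, 0.87 for Acta2 with Actg2 and 0.98 for Actg2 with Myl9. In contrast r was -0.58 for Acta2 with Tpm1 and -0.83 for Cald1 with Tpm1, while Tpm1 and Tpm2 gave 0.81. These values describe 6 libraries that form 2 genotypes, share their depth and scaling between all genes, and include WT1. That library was the highest of the WT libraries for Acta2, Actg2, Myl9, Tpm1 and Tpm2 alike.

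The genes most like the mean profile of the 9 contractile genes with sufficient counts, among 9357 genes of at least 10 CPM, were Aven (r = 0.996), Adi1 (0.995), Hdac1-ps (0.995), Plaa (0.994) and Arpc2 (0.991), over 6 libraries. In all 5 of them WT1 was the highest library, as in the mean profile, which stood at 0.29 in WT1 and between -0.15 and 0.01 in the other 5 libraries on the centred log2 scale. Arpc2, a subunit of the complex that branches actin filaments, had for example 324 CPM in WT1, 288 and 294 in the other WT libraries and 271 to 283 in KO.

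Other genes of the smooth muscle contractile programme, of which 18 were listed, were called in both directions. In KO 4 were called higher and 3 lower, with a median log2 fold change of -0.02, and without KO1 the count called higher was 2. Synm, synemin, an intermediate filament protein that partners desmin, rose from 2.21 to 5.47 CPM (log2 fold change 1.28 ± 0.23, SE). Hspb6, a small heat shock protein of muscle, rose from 11.01 to 22.1 CPM, and Pgm5 and Pdlim7 were also called higher. Itga8, the integrin α8 chain of smooth muscle and myofibroblasts, fell from 5.76 to 2.45 CPM (log2 fold change -1.22 ± 0.22, SE). Mylk, the kinase that phosphorylates myosin light chains, fell from 2.56 ± 0.95 to 1.32 ± 0.55 CPM (SD, n = 3), with overlapping groups and an adjusted p of 0.027 in edgeR, and Nexn was also called lower.

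Of 13 counterparts of the contractile genes that are expressed outside muscle, 0 were called higher and 3 lower, with a median log2 fold change of -0.06, and without WT1 1 was called higher and 4 lower. Myl12a, a nonmuscle myosin regulatory light chain, fell from 224 to 166 CPM (log2 fold change -0.43 ± 0.07, SE). Vim, vimentin, fell by 0.19 ± 0.06 (SE) on the log2 scale, and Tpm4 is given above. Of 13 counterparts 5 had all KO libraries below all WT libraries and 1, Tagln2, had them above.

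Of 14 regulators of the programme, 1 was called higher in KO and 0 lower, and without WT1 1 was called higher and 1 lower. Klf5, a Krüppel-like factor, rose from 20.7 to 28.8 CPM (log2 fold change 0.47 ± 0.10, SE). Srf itself was at 90.7 ± 4.64 CPM in WT and 92.7 ± 3.73 in KO (SD, n = 3), a log2 fold change of 0.03 ± 0.08 (SE). Mrtfa and Mrtfb, the actin-sensing cofactors of SRF, gave 0.02 ± 0.08 and 0.16 ± 0.08 (SE), and Myocd -0.18 ± 0.50 at under 1 CPM. Prrx1, a homeobox factor of embryonic mesenchyme, was the most abundant of these named regulators in CPM, with 301 in WT and 309 in KO.

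Other targets of SRF and its cofactors divided. Of 18 genes 6 were called higher and 2 lower, with a median log2 fold change of 0.05. Without WT1 these counts were 8 higher and 5 lower, so the number called lower depended on that library. Egr1, an immediate early transcription factor, rose from 68.7 to 142 CPM (log2 fold change 1.04 ± 0.08, SE), Egr2 from 1.59 to 3.38 and Junb from 32.5 to 59.7, and Fos, Ier2 and the LIM protein gene Fhl1 were also called higher. Ccn2, connective tissue growth factor, fell from 210 ± 7.52 to 128 ± 6.97 CPM (SD, n = 3), a log2 fold change of -0.72 ± 0.07 (SE), and Fhl2 was also called lower.

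Of 22 genes of the transforming growth factor beta response and of myofibroblasts, 6 were called higher and 9 lower, and the median log2 fold change was -0.10. Ltbp2, which binds microfibrils in the matrix, rose from 30.9 to 104 CPM (log2 fold change 1.74 ± 0.08, SE). Fap, the fibroblast activation protein, fell from 8.57 ± 2.22 to 2.66 ± 0.84 CPM (SD, n = 3), Itga11, a collagen receptor chain, from 68.0 ± 10.3 to 29.7 ± 2.91, and Cdh11, a cadherin of mesenchyme, from 612 ± 5.70 to 377 ± 6.63. The log2 fold changes of these 3 genes were -1.67 ± 0.20, -1.20 ± 0.09 and -0.70 ± 0.07 (SE). Fn1, Tnc, Palld, Tgfb2 and Tgfbr2 were also called higher, and Postn, Lox, Itgb5, Itgav and Cdh2 were among the others called lower.

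**Figure D4:**
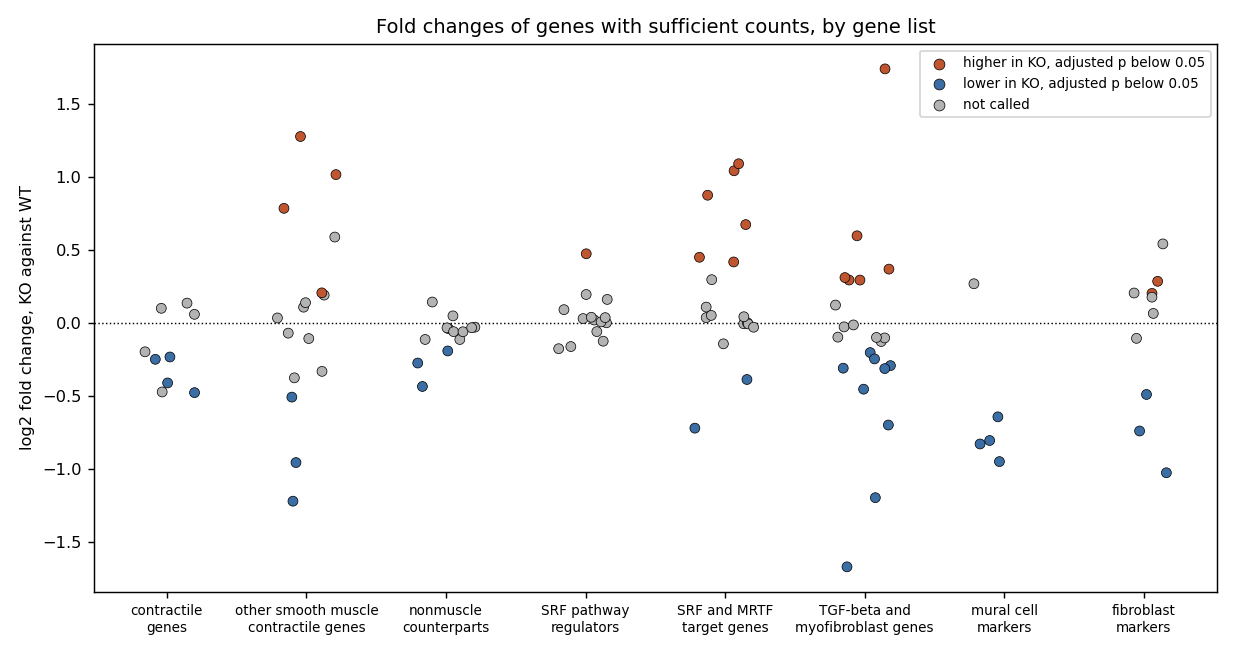
Log2 fold change of KO against WT (vertical axis) of single genes in 8 lists (horizontal axis), for genes with sufficient counts by filterByExpr. Each point is a gene, coloured by its call in edgeR, and its place within a column is arbitrary. The contractile genes lie between -0.48 and 0.14, while the SRF and MRTF target genes and the myofibroblast genes hold calls on both sides of 0.

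Some of the markers of other cells were also called between genotypes. Of 11 mural cell markers, 4 were called lower in KO and 0 higher: Rgs4 (log2 fold change -0.95 ± 0.15, SE), Ednra (-0.83 ± 0.11), Mcam (-0.81 ± 0.09) and Cspg4 (-0.64 ± 0.08). The sum of the whole list was 197 to 239 CPM in WT and 136 to 143 in KO. The median log2 fold change was 0.27 over the 9 genes tested, against -0.81 over the 5 with sufficient counts. The defining pericyte genes Kcnj8 and Abcc9 were at 0 in every library and Rgs5 was at 0.024 CPM in WT and 0.27 in KO. Of 24 striated muscle markers 1 was called lower, Tnnt2, from 7.42 to 2.53 CPM, 0 were called higher and 6 were at 0 in all libraries, Myod1 and Ckm among them. The sum of the list was 16.2 to 17.7 CPM in WT and 11.2 to 12.3 in KO, far under the level of Acta2.

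Among 10 fibroblast markers 2 were called higher and 3 lower. The number called higher was 1 when genes were kept by FPKM above 0 in every library. It was 3 with filterByExpr and without WT1, and the number called lower was 2 in DESeq2. Thy1, a surface glycoprotein, fell from 394 ± 9.30 to 194 ± 5.99 CPM (SD, n = 3), and Pdgfrb, a receptor of mesenchymal and mural cells, from 472 ± 36.5 to 282 ± 3.83. S100a4 was called lower with overlapping groups, and Col3a1 and Col1a1 were called higher, at log2 fold changes of 0.29 ± 0.06 and 0.20 ± 0.05 (SE).

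Of 10 epithelial markers 3 were called higher and 0 lower, with sums of 4.42 to 6.27 CPM in WT and 13.9 to 14.6 in KO. Krt18 rose from 0.57 to 4.56 CPM and Krt19 from 3.61 to 6.53. Of 6 mesothelial markers 1 was called higher, Msln, with a log2 fold change of 3.95 ± 0.13 (SE), and 0 lower, while Wt1 was at 0.26 CPM in WT and 0.31 in KO and Lrrn4 and Muc16 were at 0. Of 8 neural and neural crest markers 3 were called higher, Tubb3, Nes and Sox2, and 0 lower, with Sox10 and Foxd3 at 0, and 1 was called lower without WT3. Of 8 endothelial and 8 immune markers 0 were called in either direction in edgeR or DESeq2 with all 6 libraries or at an unadjusted p below 0.05, while limma-voom and edgeR without WT2 each called 1 endothelial marker higher. In the other directions with 0 calls in edgeR with all 6 libraries, DESeq2 also made 0, and at an unadjusted p below 0.05 there was 1 gene each for nonmuscle counterparts higher, SRF regulators lower, mural markers higher, striated muscle markers higher and neural markers lower, and 0 for epithelial and mesothelial markers lower. The part of these other cell markers in the lower levels of Acta2, Myl9, Actg2 and Cald1 was not tested.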

How the data were processed

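RNA of 3 WT and 3 KO MEF cultures was sequenced as read pairs. The authors mapped reads with HISAT2 2.0.5 and counted them per gene with featureCounts 1.5.0-p3, per the labels, and the deposited counts are whole numbers that were used as deposited. The deposited FPKM values were made by the authors from those counts and gene lengths, and were used for levels between genes. Gene coordinates were copied as deposited. The study's methods name Ensembl 106 and the submitters' processing notes GRCm38. For genes with printed promoter stretches, the deposited coordinates do not match GRCm38. The deposited Myl9 starts at 156617340, while its GRCm38.p6 promoter stretches lie at 156775293 to 156775384. Only promoter stretches and exon overlaps use GRCm38. Rows with no Ensembl gene, 0.098% to 0.113% of counts, stayed in library sizes. No other processed values were used.

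Counts were tested with edgeR 4.0.16 (TMM, glmQLFit and glmQLFTest, genes with FPKM above 0 in at least 1 library) in R 4.3.3, with no covariate, and tested on simulated data. The estimated prior degrees of freedom were infinite, so that a gene varying more than the trend has too small a p. Alternatives were DESeq2 1.42.0, limma-voom 3.58.1, robust edgeR, RLE scaling, 2 other gene filters, a replicate block, each library left out, the 2-fold rule and log2(FPKM + 1) or + 0.1. The study had used DESeq2 for this contrast. The contractile genes and all lists were chosen with earlier results of these data known, and the class of genes of at least 100 CPM after the values were seen, so that counts over lists are descriptions. Named from each list were at most 4 genes, those with the largest change among called genes of at least 1 CPM, or else the 2 with the highest FPKM, as well as Srf, Myocd, Mrtfa, Mrtfb, the 5 genes most like the mean profile and genes overlapping a contractile gene; other list genes were named after their values were seen. Sequences are from RefSeq. CPM of mean ± SD are over libraries, and intervals cover the fitted error only.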

Additional observations from a re-analysis of the deposited data

How the results depend on the processing

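Acta2 was called lower in all 13 alternative tests and Mcm8 kept its direction and call, at -1.18 as a difference of log2(FPKM + 1). The count of contractile genes called higher was 1 with limma-voom, which called Tpm1 (0.14), and the count called lower was 2 with limma-voom, with filterByExpr and with FPKM above 0 in every library, and 0 under the 2-fold rule, which left 472 genes higher and 179 lower in all. In those fits Actg2 was not called at -0.43, -0.47 and -0.48, and Myl9 at -0.23, -0.24 and -0.25; with DESeq2 Actg2 was not called at -0.49. With 1 library left out, contractile genes called numbered 0 to 2 higher and 1 to 4 lower. Over all genes the calls numbered 956 to 1650 higher and 650 to 1624 lower. The upper ends came without WT1, other than that of contractile genes called lower, which came without WT2 or WT3. The 5 pathway lists held 15 to 21 higher and 14 to 23 lower calls and the 8 cell type lists 9 to 11 and 7 to 8. Log2 fold changes ranged from -0.44 to -0.36 for Acta2, -0.62 to -0.25 for Actg2, -0.33 to -0.10 for Tagln, -0.026 to 0.14 for Cnn1, -0.30 to -0.15 for Myl9, -0.90 to -0.15 for Myh11, 0.10 to 0.20 for Tpm1, -0.0019 to 0.22 for Tpm2, -0.25 to -0.21 for Cald1 and -3.31 to 1.19 for Des. Signs turned for Cnn1 (-0.026) and Tpm2 (-0.0019) without WT2 and for Des (-0.35 without WT2, -3.31 without KO2, -0.49 with limma-voom), which had at most 4 counts in a library; Des was 0.0033 and Myh11 -0.041 on log2(FPKM + 1). Other causes were not tested. RLE moved the median of all genes by -0.00069.

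Replicate numbers did not pair the libraries: deviations of same-numbered libraries from their group means correlated at -0.03, -0.01 and 0.05 over 14332 genes. With the number as a replicate block, 1330 genes were called higher and 1035 lower, the contractile genes gave 0 and 4, and the only change of side or sign among the contractile genes was that of Des, at -0.43, while 1 neural marker was called lower, against 0 without the block.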
